A study of Mus musculus with 4 samples.

Results

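The 7 genes described here were *Tbx2*, *Tbx3*, *Tbx4*, *Tbx5*, *Tbx15*, *Tbx18* and *Pitx1*, 7 of the 21757 protein-coding genes of the mouse annotation on GRCm39. They were chosen by name, and H3K27ac peaks were taken as theirs where a peak interval lay within 200 kb of the 5′ end of the gene. In limb this gave 75 of the 40899 intervals listed for EGFP+ and 62 of the 34360 listed for EGFP- cells, and in trunk 31 of 36231 and 32 of 30716. H3K27ac, an acetylation of histone H3 found at active promoters and enhancers, was profiled by ChIP-seq in these 4 sorted populations of E14.5 mouse fetuses to map enhancers of chondrocytes, with 1 library per population. All 4 populations carried the Col2a1-EGFP genotype, in which an EGFP cassette placed near *Col2a1* reports the activity of that cartilage collagen gene, so that EGFP+ cells are taken as chondrocytes and EGFP- cells as a mixture of the other cells of the same tissue. The fetuses were male and came from 1 edited clone of the G4 embryonic stem cell line by tetraploid aggregation. Limbs comprised forelimbs and hindlimbs together, so that a signal at a forelimb gene and a signal at a hindlimb gene were read from the same pool. Trunks were taken without the head, the limbs and the internal organs.

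T-box proteins are transcription factors that share the DNA-binding T-box domain. *Tbx5* starts and sustains outgrowth of the forelimb, *Tbx4* takes part in outgrowth of the hindlimb, and *Pitx1*, a homeodomain factor, acts upstream of *Tbx4* and gives the hindlimb its identity. *Tbx2* and *Tbx3* encode repressors that act at the limb margins and in digit patterning, while *Tbx15* and *Tbx18* are close relatives of each other with roles in the size of skeletal elements and in the segmentation of the vertebral column. *Tbx2* and *Tbx4* lie side by side on chromosome 11, with start sites 53.5 kb apart, and *Tbx3* and *Tbx5* lie side by side on chromosome 5, with start sites 164 kb apart. The windows of such neighbours overlap, and their shared intervals are counted once in every total over the 7 genes.

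With 1 library per population the values carry no replicate error, and the populations were compared without a test. Tissue and sequencing lane cannot be told apart, since the limb libraries carry 1 lane label and the trunk libraries another. In the trunk EGFP- list the peak names and the sample label give different replicate numbers. Promoter intervals at 7 chondrocyte genes, among them *Col2a1*, *Acan* and *Sox9*, were present for all 7 in both EGFP+ lists, for 4 in the limb EGFP- list and for 3 in the trunk EGFP- list. None of 9 genes of skin epithelium, endothelium and blood had a promoter interval in any list, and of 4 muscle genes only *Myog* had one, in limb EGFP+ cells. *Hoxd13*, a gene of the distal limb, had a promoter interval in both limb lists and in neither trunk list, and *Hoxc8*, a gene of the trunk, in both trunk lists and in neither limb list. *Pax1*, a gene of the vertebral column, had one in trunk EGFP+ cells alone, and *Shox2*, a gene of the proximal limb, in no list. Of 3 neural genes, *Sox10* had one in limb EGFP+ and *Tubb3* in trunk EGFP- cells. Of 4 connective tissue genes, 2 had a promoter interval in each list.

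The sequences on which the distal results turn are 200 bp around the strongest summit, read from GRCm39 on the plus strand. They comprise the strongest distal region of each gene other than *Tbx18*, 2 further regions found in limb lists alone and 1 found in both trunk lists and in no limb list. Capitals mark matches, on either strand, to the SOX-type motifs ACAAAG and ACAAT and to the PITX-type motif TAATCC.
Region downstream of *Tbx4*, strongest of *Tbx2* and *Tbx4*, chr11:85808205-85808404: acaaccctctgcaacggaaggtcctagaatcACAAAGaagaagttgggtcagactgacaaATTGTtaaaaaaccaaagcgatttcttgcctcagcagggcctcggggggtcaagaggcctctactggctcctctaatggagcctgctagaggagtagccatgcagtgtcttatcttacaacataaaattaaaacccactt
Region between *Tbx2* and *Tbx4*, limb EGFP+ cells alone, chr11:85742992-85743191: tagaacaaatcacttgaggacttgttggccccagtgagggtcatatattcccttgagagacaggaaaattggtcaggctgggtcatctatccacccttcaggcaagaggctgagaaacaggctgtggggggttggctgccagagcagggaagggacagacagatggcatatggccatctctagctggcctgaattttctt
Region downstream of *Tbx4*, trunk lists alone, chr11:85886462-85886661: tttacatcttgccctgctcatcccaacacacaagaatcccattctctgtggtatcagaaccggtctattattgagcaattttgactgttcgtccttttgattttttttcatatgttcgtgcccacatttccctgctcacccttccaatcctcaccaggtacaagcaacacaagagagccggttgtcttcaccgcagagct
Region upstream of *Pitx1*, limb EGFP+ cells alone, chr13:56110897-56111096: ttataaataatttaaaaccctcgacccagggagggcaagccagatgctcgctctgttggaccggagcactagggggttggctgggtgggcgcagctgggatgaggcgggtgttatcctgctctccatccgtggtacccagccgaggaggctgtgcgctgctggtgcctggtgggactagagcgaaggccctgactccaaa
Region between *Tbx3* and *Tbx5*, limb EGFP- cells alone, chr5:119929992-119930191: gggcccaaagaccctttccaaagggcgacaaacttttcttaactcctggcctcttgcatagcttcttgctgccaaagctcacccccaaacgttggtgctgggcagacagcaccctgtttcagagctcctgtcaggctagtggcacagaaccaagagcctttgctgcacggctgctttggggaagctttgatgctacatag
Region in *Tbx15*, strongest of the gene, chr3:99161246-99161445: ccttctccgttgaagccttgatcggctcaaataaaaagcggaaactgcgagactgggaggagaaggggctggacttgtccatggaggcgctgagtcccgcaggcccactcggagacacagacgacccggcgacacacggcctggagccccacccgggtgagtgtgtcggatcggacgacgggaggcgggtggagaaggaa
Region upstream of *Tbx15*, limb EGFP+ cells alone, chr3:99017335-99017534: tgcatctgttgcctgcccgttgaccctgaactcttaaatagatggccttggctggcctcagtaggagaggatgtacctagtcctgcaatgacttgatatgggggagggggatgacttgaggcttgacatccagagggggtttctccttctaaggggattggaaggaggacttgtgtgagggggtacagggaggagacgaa
Of the sequences shown, the first holds 1 ACAAAG and 1 ACAAT, and the other 6 hold none of these 3 motifs.

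Promoters of the 7 genes were marked mainly in the limb. A promoter interval overlapped a window around any start site of the gene that began 2 kb upstream and ended 500 bp downstream of it. All 7 genes had such an interval in limb EGFP+ cells, where 54% of all protein-coding genes did, and 5 had it in limb EGFP- cells, against 51.2% of all genes. In trunk EGFP+ cells 2 of the 7 had it, *Tbx3* and *Tbx4*, against 52.2% of all genes, and in trunk EGFP- cells only *Tbx3* had it, against 52.2%. *Tbx2*, *Tbx5*, *Tbx15*, *Tbx18* and *Pitx1* had a promoter interval in a limb list and in no trunk list, which is 5 of 7 where the share over all genes was 2.81%. *Tbx5*, *Tbx15* and *Tbx18* had it in both limb lists and in no trunk list, against 0.427% of all genes. No member had a promoter interval in a trunk list and in no limb list, against 2.29% of all genes.

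Within the EGFP+ fraction the same 5 genes had a promoter interval in limb and not in trunk, against 3.36% of all genes, and 0 had the reverse, against 1.55%. Within the EGFP- fraction they were *Tbx4*, *Tbx5*, *Tbx15* and *Tbx18*, 4 against 2.15%, with 0 in reverse against 3.22%. Between the fractions of the limb, *Tbx2* and *Pitx1* had a promoter interval in EGFP+ and not in EGFP- cells, 2 against 4.79% of all genes, with 0 in reverse against 2%. Between those of the trunk, *Tbx4* had it in EGFP+ and not in EGFP- cells, 1 against 3.19%.

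These counts depend on where the window ends and on the strength asked of a peak. With windows of 2 kb on both sides of each start site, the genes marked in limb alone were *Tbx2*, *Tbx5* and *Pitx1*, 3 of 7 against 2.73% of all genes, since trunk intervals lay 0.92 kb into *Tbx15* and 1.36 and 1.59 kb into *Tbx18*. With intervals of a −log10 q of at least 5 alone, they were *Tbx4*, *Tbx15* and *Tbx18*, 3 of 7 against 2.74%. The 5 genes also rest on the limb EGFP+ list, since without it the count was 3, *Tbx5*, *Tbx15* and *Tbx18*. Without the trunk EGFP+ list it was 6, with *Tbx4* added.

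**Figure D1:**
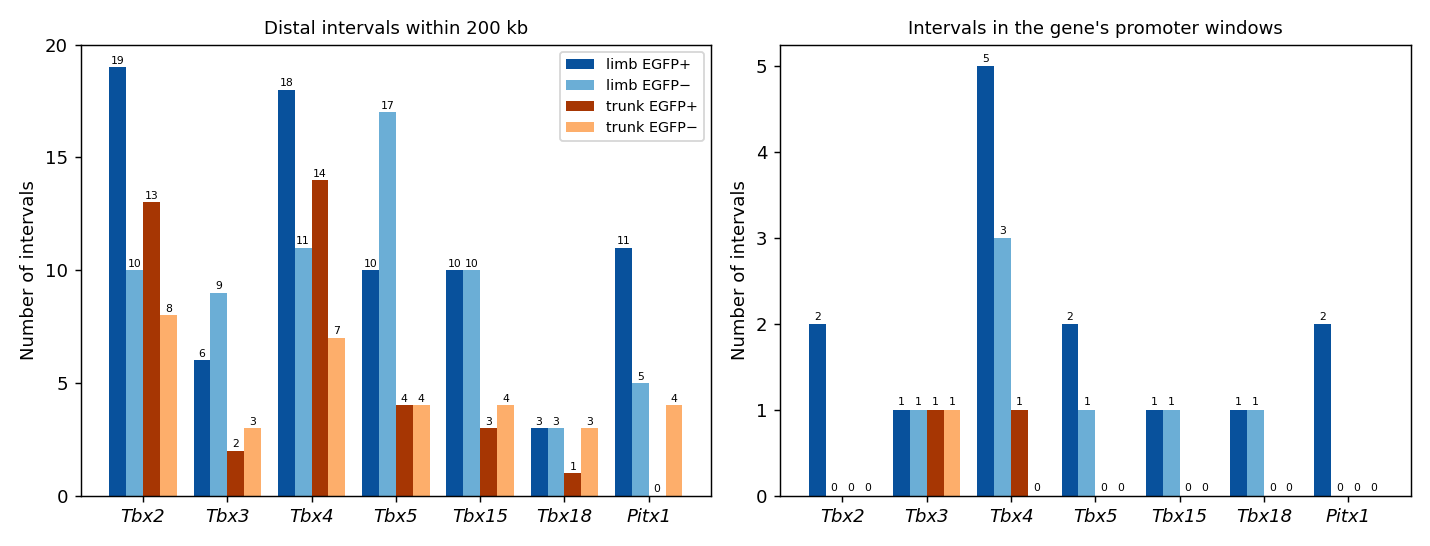
Number of H3K27ac peak intervals per gene (y axis) in limb EGFP+, limb EGFP-, trunk EGFP+ and trunk EGFP- cells (bars, 1 library each, no error bars), for distal intervals within 200 kb of the start site on the left and for intervals in the gene's own promoter windows on the right. *Tbx2* and *Tbx4* share most of their distal intervals, *Pitx1* has 11 distal intervals in limb EGFP+ cells and 0 in trunk EGFP+ cells, and *Tbx3* alone has a promoter interval in every list.

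Beside the peak itself, the level around it could be read from the deposited values. MACS2 scored each summit against a local background. This was taken to be the density of the library's own reads over 10 kb, as MACS2 does by default without a control library, a setting that is not given in the sources used here, and all levels over 10 kb rest on it. The fold and the −log10 p together give both the reads at the summit and the reads over those 10 kb. The reads over 10 kb came out whole, within 0.05 of a read, for 100% of the intervals whose local background was above that of the library. Library-wide, 10 kb held 74.6 reads in EGFP+ and 81.5 in EGFP- cells of the limb and 80.2 and 91.7 reads in those of the trunk, and levels over 10 kb are given as multiples of these values. Intervals given with a ratio of levels are exact, at 95%, and cover counting error only. The ratios are not adjusted for offsets between lists. Over distal regions genome-wide with peaks in both lists, the median ratio of limb EGFP+ over limb EGFP- cells was 1.17. It was 1.09 for limb EGFP+ over trunk EGFP+, 1.04 for limb EGFP- over trunk EGFP- and 1.12 for trunk EGFP+ over trunk EGFP- cells. A level is known only where a peak was called, and a missing peak does not give a level of 0.

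*Tbx4*, the hindlimb T-box gene (ENSMUSG00000000094.14, chr11:85776887-85806923, plus strand), had the most promoter windows of the 7 genes, with 6. *Tbx3* had 5, *Tbx5* and *Tbx15* 3 each, *Pitx1* 2, and *Tbx2* and *Tbx18* 1 each. *Tbx4* also had the most promoter intervals. Limb EGFP+ cells had 5, limb EGFP- cells 3, trunk EGFP+ cells 1 and trunk EGFP- cells 0, all at alternative start sites inside the gene, between 2.31 and 3.6 kb and between 10.3 and 10.96 kb from its 5′ end. Closer to the 5′ end, 0.69 kb into the gene and outside the promoter windows, a distal interval of limb EGFP+ cells had 906 reads over 10 kb, 12.1 times the library. At the interval 2.87 kb into the gene, limb EGFP+ cells had 997 reads over 10 kb, limb EGFP- cells had 557 in the interval that overlaps it, and trunk EGFP+ cells had 127. As multiples of the library the levels were 13.4, 6.83 and 1.58. Limb EGFP+ cells were thus 8.44 times (7.01 to 10.2) as high as trunk EGFP+ cells and 1.96 times (1.76 to 2.17) as high as limb EGFP- cells. The trunk EGFP+ interval was 200 bp wide with 11 reads at its summit, and lay at 89.4% of its list when ordered from the strongest −log10 p down. At the alternative start site further into the gene the level in limb EGFP+ cells was 1.96 times (1.72 to 2.23) that in limb EGFP- cells, with 656 and 366 reads over 10 kb, and neither trunk list had an interval there.

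*Pitx1* (ENSMUSG00000021506.8, chr13:55972864-55984005, minus strand) had promoter intervals in limb EGFP+ cells alone. There were 2, 387 and 200 bp wide, with 27 and 30 reads at their summits and 594 and 562 reads over 10 kb, which is 7.96 and 7.53 times the library. The median over all intervals of that list was 26 reads at the summit. Ordered by −log10 p they lay at 95.5% and 78.7% of the list, while ordered by reads over 10 kb they lay at 13.9% and 15.7%. A pair of intervals in an intron 5.63 and 6.10 kb into the gene stood still higher, with 1028 and 1004 reads over 10 kb, 13.8 and 13.5 times the library and at 3.05% and 3.30% of the list by that measure. In trunk EGFP- cells the only interval inside *Pitx1* covered an exon 9.62 kb into the gene, with 14 reads at its summit and 202 over 10 kb, 2.2 times the library. Limb EGFP- and trunk EGFP+ cells had no interval inside the gene.

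*Tbx5*, the forelimb T-box gene (ENSMUSG00000018263.13, chr5:119970733-120023284, plus strand), had 2 promoter intervals in EGFP+ and 1 in EGFP- cells of the limb and none in the trunk lists. Upstream of the 5′ end, at -1.36 and -1.50 kb, the levels of the limb lists were nearly the same, with 628 reads over 10 kb in EGFP+ and 678 in EGFP- cells, 8.42 and 8.32 times the library, and a ratio of 1.01 (0.906 to 1.13). The other interval in limb EGFP+ cells, 2.62 kb into the gene, had 886 reads over 10 kb, 11.9 times the library. It lay at 95.1% of its list by −log10 p and at 5.00% by reads over 10 kb. The *Tbx5* and *Pitx1* promoters thus both had a low place by −log10 p and a high place by local level. The −log10 p is scored against that local level, so for a given number of reads at the summit a high level lowers it.

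*Tbx2* (ENSMUSG00000000093.8, chr11:85723377-85734115, plus strand) had the fewest reads at its promoter of the 7 genes in limb EGFP+ cells, both at the summit and over 10 kb. Its 2 intervals were 200 bp wide each, with 10 and 15 reads at their summits and 147 and 151 reads over 10 kb, 1.97 and 2.02 times the library, and by −log10 p they lay at 98.9% and 70.9% of the list, the latter ahead of the best promoter intervals of *Tbx3*, *Tbx5* and *Pitx1*. Limb EGFP- cells had no interval in the promoter window, but an interval 264 bp wide inside the gene just downstream of it, chr11:85724668-85724931, had 26 reads at its summit and 333 over 10 kb, 4.09 times the library. No trunk list had an interval at the *Tbx2* promoter or inside the gene.

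*Tbx3* (ENSMUSG00000018604.20, chr5:119806298-119822797, plus strand) went the other way. It was the only member with a promoter interval in all 4 lists, as 47.1% of all genes had, and limb EGFP+ cells were the lowest of the 4. The intervals lay between 1.76 and 1.98 kb into the gene, at alternative start sites, and with the start of the gene record alone *Tbx3* had a promoter interval in 0 lists. The summit had 18 reads in limb EGFP+, 48 in limb EGFP-, 37 in trunk EGFP+ and 41 in trunk EGFP- cells, with widths of 292, 861, 617 and 665 bp. Over 10 kb there were 286, 571, 520 and 723 reads in the same order, 3.83, 7.01, 6.49 and 7.89 times the library. Limb EGFP+ cells had 0.547 times (0.473 to 0.632) the level of limb EGFP- cells and 0.591 times (0.510 to 0.684) that of trunk EGFP+ cells. The other 3 populations were closer to each other, with trunk EGFP+ cells at 0.822 times (0.733 to 0.922) trunk EGFP- cells and limb EGFP- cells at 0.888 times (0.794 to 0.993) trunk EGFP- cells.

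*Tbx15* (ENSMUSG00000027868.13, chr3:99147697-99294185, plus strand) had a broad promoter interval of 1175 bp in limb EGFP+ cells and one of 440 bp in limb EGFP- cells. They had 31 and 22 reads at their summits and 415 and 305 over 10 kb, 5.56 and 3.74 times the library, and the EGFP+ level was 1.49 times (1.28 to 1.73) the EGFP- level. In trunk EGFP- cells an interval of 223 bp lay 0.92 kb into the gene, outside the promoter window and under the broad limb EGFP+ interval, with 11 reads at its summit and 143 over 10 kb, 1.56 times the library. *Tbx18* (ENSMUSG00000032419.10, chr9:87584851-87613338, minus strand) had a promoter interval of 552 bp in limb EGFP+ cells and of 363 bp in limb EGFP- cells. They had 37 and 30 reads at their summits and 345 and 364 over 10 kb, and the ratio of the levels was 1.04 (0.891 to 1.20), so that the limb lists did not differ there beyond counting error.

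**Figure D2:**
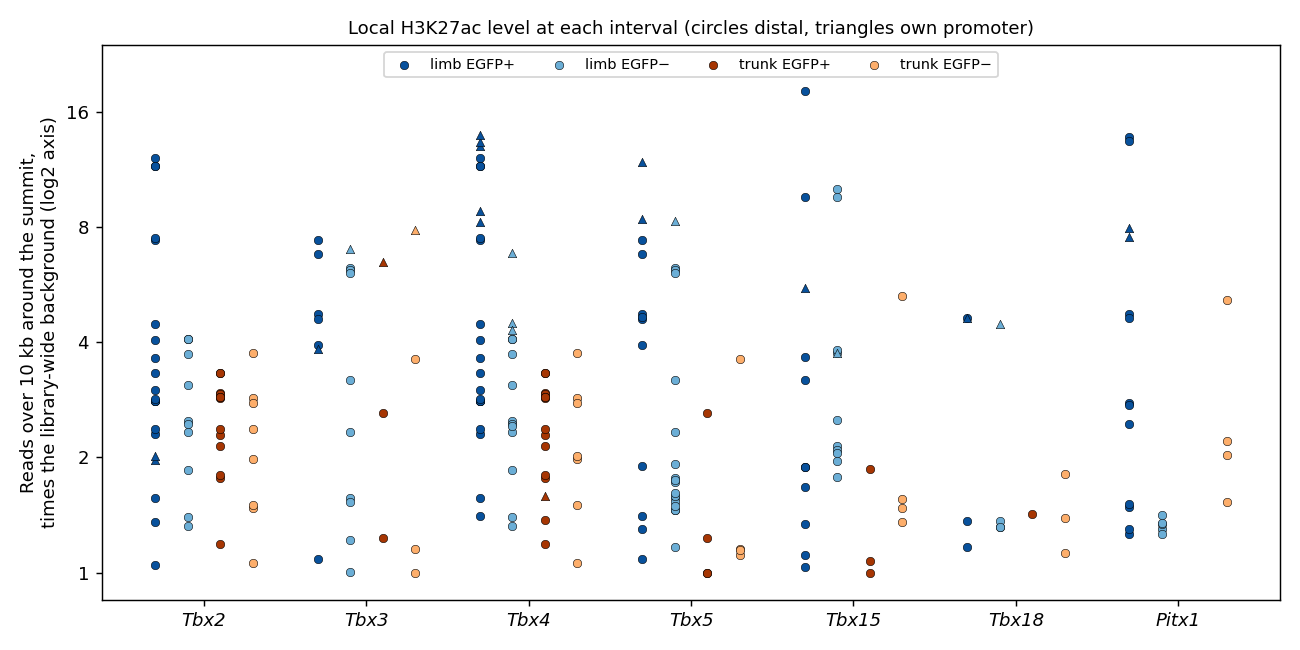
Reads over 10 kb around the strongest summit of each interval, as a multiple of the library-wide background (log2 y axis), for the 7 genes (x axis) and the 4 lists (colours, 1 library each); circles are distal intervals and triangles intervals in the gene's own promoter. Limb EGFP+ cells reach 18.2 at *Tbx15*, 13.9 at *Tbx4* and 13.8 at *Pitx1*, while for *Tbx3* the promoter of limb EGFP+ cells, at 3.83, lies below those of the other 3 lists.

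Distal intervals, those outside the promoter windows of all protein-coding genes, were also more numerous in the limb. Over the 7 genes the limb lists held 54 in EGFP+ and 48 in EGFP- cells, and the trunk lists 22 and 25. The limb lists were also longer, with 22833 and 17768 distal intervals genome-wide against 19295 and 14231 in the trunk lists. In the 20000 strongest intervals of each list, the limb lists held 13 and 15 near the 7 genes and the trunk lists 4 and 11. All 7 genes had more in limb EGFP+ than in trunk EGFP+ cells, against 40.7% of all genes, and 0 had fewer, against 26.1%. The neighbours *Tbx2* and *Tbx4*, and *Tbx3* and *Tbx5*, share distal intervals, so that the counts per gene here are not independent. With each interval given to the nearest start site, the *Tbx2* difference was 1 instead of 6. The count of 7 did not hold under every setting. The difference fell to 0 for *Tbx18* when a −log10 q of 5 or more was asked, in the 20000 strongest intervals, with a fold of at least 4 and within 500 kb, and for *Tbx3* within 100 kb and with each interval given to the nearest start site. In EGFP- cells 6 genes had more in limb than in trunk, against 42.9%, and 0 had fewer, against 22.9%, with *Tbx18* at 3 in both. The 6 genes had more in both fractions, as 21.1% of all genes did. The EGFP- count of 6 did not hold under every setting either. The difference fell to 0 for *Tbx2* with that −log10 q, and for *Tbx4* in the 20000 strongest and with that fold. It also fell to 0 for *Tbx3* by the nearest start site and for *Pitx1* within 100 kb. For *Tbx18* it was -2 within 100 kb, and reversals for *Tbx2*, *Tbx15* and *Pitx1* are given in the last section. For *Tbx3*, *Tbx5*, *Tbx15* and *Pitx1* the limb EGFP+ count was at least 2 times the trunk EGFP+ count and at least 3 higher, against 6.89% of all genes, and for *Tbx3*, *Tbx5* and *Tbx15* the same held in EGFP- cells, against 7.96%. The median over all genes was 3 in each list but trunk EGFP- cells, where it was 2.

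Between the limb fractions the members' counts were near the shares over all genes, and the neighbours *Tbx2* and *Tbx4*, and *Tbx3* and *Tbx5*, share much of their windows. *Tbx2*, *Tbx4* and *Pitx1* had more distal intervals in limb EGFP+ than in limb EGFP- cells, against 44% of all genes, with 19 and 10, 18 and 11, and 11 and 5. *Tbx3* and *Tbx5* had fewer, against 27.6% of all genes, with 6 and 9, and 10 and 17, while *Tbx15* had 10 and 10 and *Tbx18* had 3 and 3. In the trunk, *Tbx2* and *Tbx4* had more in EGFP+ than in EGFP- cells, against 45.1% of all genes, with 13 and 8, and 14 and 7. *Tbx3*, *Tbx15*, *Tbx18* and *Pitx1* had fewer, against 24% of all genes, with 2 and 3, 3 and 4, 1 and 3, and 0 and 4, and *Tbx5* had 4 and 4. At the upper end, 1.54% of all genes had at least the 17 distal intervals of *Tbx5* in limb EGFP- cells and 2.58% at least the 19 of *Tbx2* in limb EGFP+ cells.

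Merged over the 4 lists by an overlap of at least 1 bp, the distal intervals formed 98 regions. Of these, 60 had peaks in limb lists alone, where 38.8% of the 43885 distal regions of the genome did, 13 in trunk lists alone, against 26.3%, and 25 in both tissues. Regions with peaks in both limb lists and in no trunk list numbered 6, against 2.22% genome-wide, and 1 region had peaks in both trunk lists and in no limb list, against 1.02%. Peaks in EGFP+ lists alone marked 40 regions, against 46.2%, and peaks in EGFP- lists alone 35, against 31%. All 4 lists held a peak in 4 regions, against 10.3%, and 66 regions had a peak in exactly 1 list, against 61.9%.

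**Figure D3:**
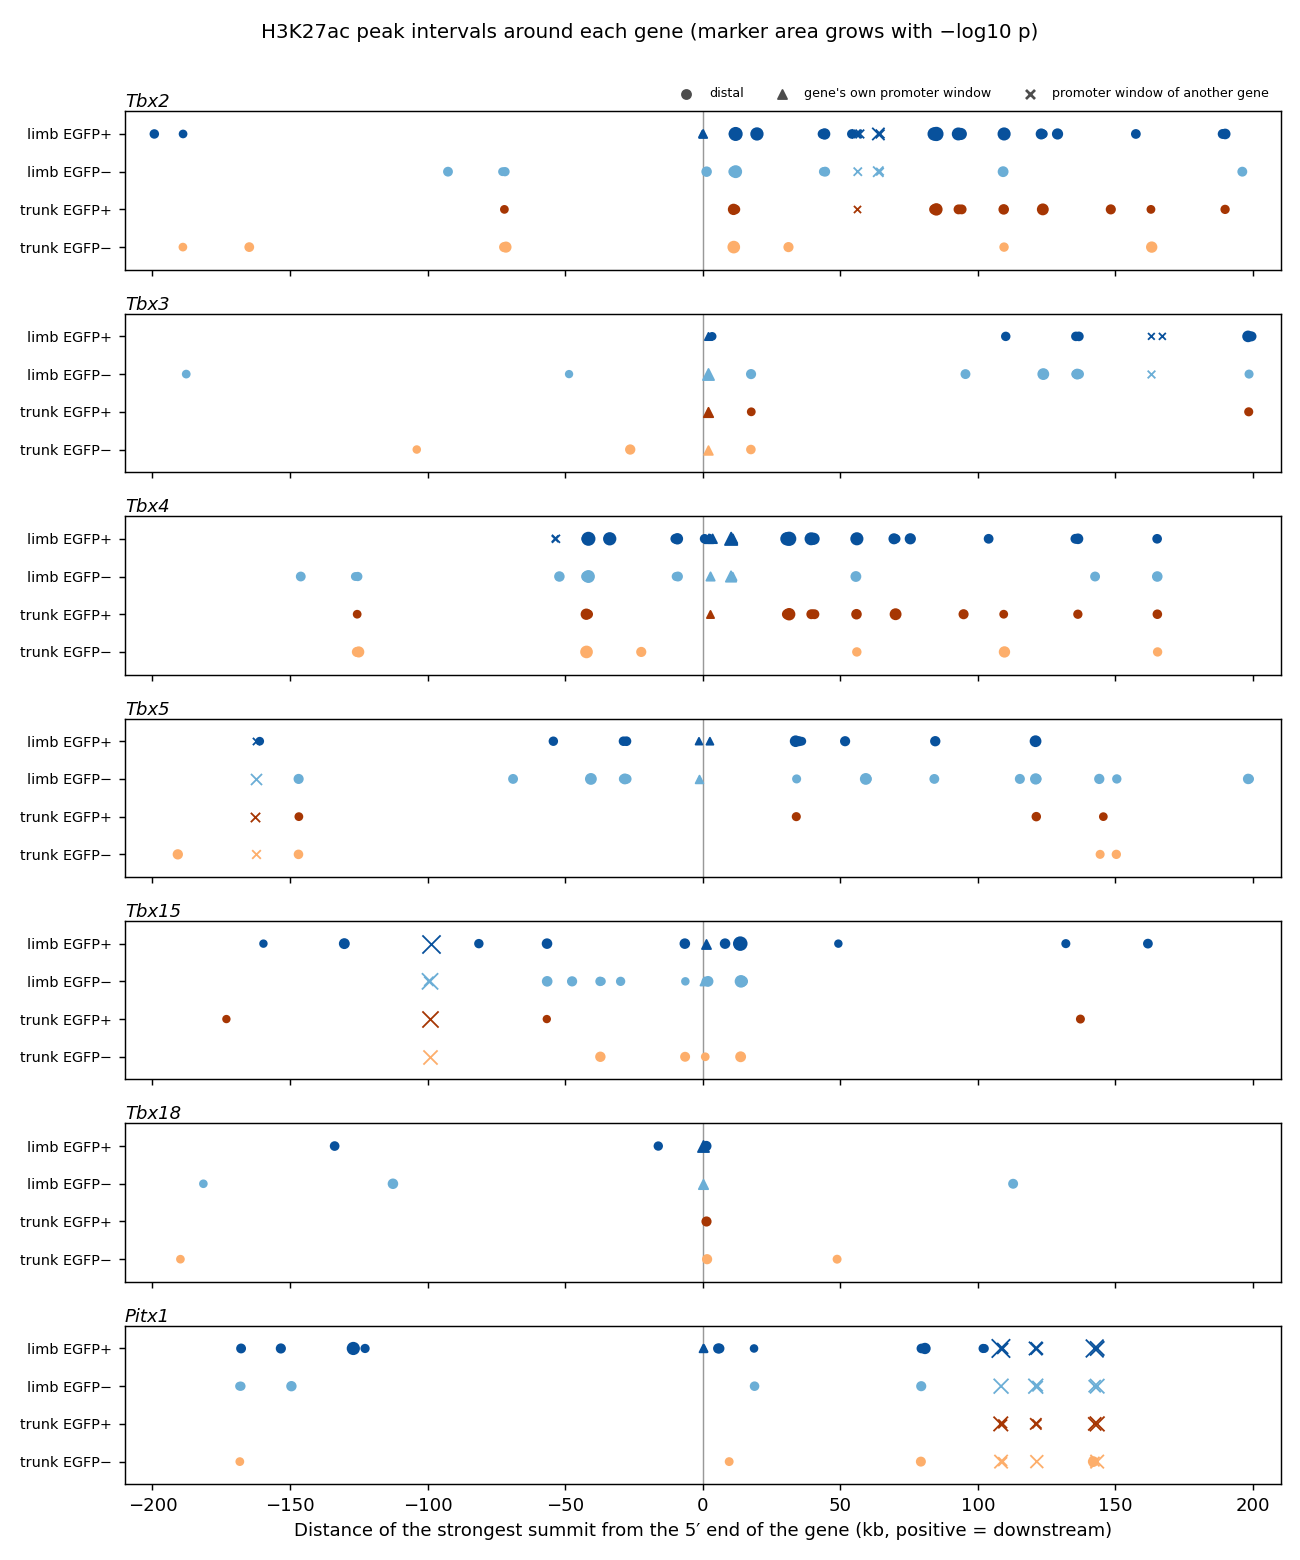
Position of each H3K27ac peak interval relative to the 5′ end of the 7 genes (x axis, kb, positive is downstream) in the 4 lists (rows, 1 library each), with circles for distal intervals, triangles for the gene's own promoter and crosses for promoters of other genes; marker area grows with the −log10 p. The limb EGFP+ intervals of *Tbx2* and *Tbx4* continue downstream of *Tbx4*, the limb intervals of *Tbx5* lie on both sides of it, and *Pitx1* has 0 distal intervals in trunk EGFP+ cells.

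At the *Tbx2* and *Tbx4* locus the strongest distal acetylation lay downstream of *Tbx4* and in EGFP+ cells. The strongest region, chr11:85808049-85808659, lies 31.4 kb from the start of *Tbx4* in intergenic sequence and had peaks in both EGFP+ lists and in no EGFP- list. Its summit had 55 reads and a −log10 p of 20.9 in limb EGFP+ cells and 31 reads and a −log10 p of 14.4 in the trunk EGFP+ list. Over 10 kb there were 558 and 266 reads, and the limb level was 2.25 times (1.94 to 2.62) the trunk level. Of the sequences shown, only that of this region holds both SOX-type motifs. Among the named regions whose sequences are not shown, chr5:120005195-120005993 in a *Tbx5* intron also holds both. A neighbouring region, chr11:85806942-85807684, was marked in the same lists, with a −log10 p of 17.7 and 7.9. Further downstream, the regions from 85815686 and from 85816553 again had peaks in EGFP+ lists alone, with 863 reads over 10 kb in limb EGFP+ cells and 229 and 231 in trunk EGFP+ cells, a ratio of 4.05 (3.50 to 4.71) and 4.01 (3.47 to 4.66). Of the 27 distal regions of *Tbx4*, 6 had peaks in both EGFP+ lists and in no EGFP- list and 0 in both EGFP- lists and in no EGFP+ list. Genome-wide the shares were 10.8% and 4.58%. Over the 98 distal regions of all 7 genes the counts were 6 (6.12%) and 3 (3.06%). *Tbx3*, *Tbx5*, *Tbx15*, *Tbx18* and *Pitx1* each had 0 regions with peaks in both EGFP+ lists and in no EGFP- list.

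Other regions of this locus had other patterns. Just downstream of *Tbx2*, chr11:85735187-85735593 had peaks in limb EGFP+, limb EGFP- and trunk EGFP+ cells, with 35, 35 and 17 reads at the summit and a −log10 p of 20.01, 15.96 and 5.63. The levels over 10 kb of the EGFP+ lists did not differ beyond counting error, with 224 reads in limb and 235 in trunk cells, 3.002 and 2.93 times the library and a ratio of 1.02 (0.849 to 1.24). Between the genes, chr11:85742866-85743749 was found in limb EGFP+ cells alone, with 31 reads at the summit, a −log10 p of 17.2 and a width of 884 bp. The widest distal interval near any of the 7 genes, 1346 bp in limb EGFP+ cells at chr11:85832064-85833409, was matched by narrower intervals in the other 3 lists, of 1024 bp in limb EGFP-, 506 bp in trunk EGFP+ and 577 bp in trunk EGFP- cells. The level there was 2.02 times (1.65 to 2.49) as high in limb as in trunk EGFP+ cells and 1.62 times (1.3 to 2.03) as high in limb as in trunk EGFP- cells. In the trunk alone, the region starting at chr11:85886192 had 9 reads at the summit in EGFP+ and 22 in EGFP- cells, with a −log10 p of 4.52 and 11.02.

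At *Pitx1* the distal marks of limb EGFP+ cells lay on both sides of the gene. The strongest, chr13:56110274-56111177, lies 127 kb upstream in intergenic sequence, was 904 bp wide and was found in limb EGFP+ cells alone, with 39 reads at the summit, a −log10 p of 16.9 and 353 reads over 10 kb, 4.73 times the library. The next, chr13:55902952-55903370, lies downstream in an intron of *Pcbd2* and was also found in limb EGFP+ cells alone, with 22 reads and a −log10 p of 10.97. Of the 15 distal regions of *Pitx1*, 11 had peaks in limb lists alone and 8 in limb EGFP+ cells alone. The third by −log10 p, chr13:55841892-55842184, lies 142 kb downstream in an intron of *B230219D22Rik* and was a distal interval of trunk EGFP- cells, with a −log10 p of 9.3. The intervals of the other 3 lists that overlap it reach into a promoter window of that gene and are not distal. In EGFP- lists alone the strongest was chr13:56133378-56133582, with 14 reads at the summit and a −log10 p of 8.2 in limb EGFP- cells. At 2 regions marked in both limb lists, 18.7 and 79.5 kb downstream, limb EGFP+ cells had 207 and 205 reads over 10 kb and limb EGFP- cells 110 and 115, a ratio of 2.06 (1.62 to 2.61) and 1.95 (1.54 to 2.47). At the third such region, 168 kb upstream, they had 94 and 109 reads, a ratio of 0.942 (0.707 to 1.25), which did not differ from 1 beyond counting error. The region 79.5 kb downstream also had a trunk EGFP- peak, with 140 reads over 10 kb. There the limb EGFP- level was 0.924 times (0.715 to 1.19) the trunk EGFP- level. Close to the third, a region marked in both EGFP- lists had 106 reads in limb and 186 in trunk cells. The limb EGFP- level there was 0.641 times (0.500 to 0.818) the trunk EGFP- level.

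At the *Tbx3* and *Tbx5* locus the limb EGFP- cells had the most distal marks. The region with the highest −log10 p, chr5:119929900-119930241, lies between the genes, 40.6 kb upstream of *Tbx5*, and was found in limb EGFP- cells alone, with 20 reads at the summit and a −log10 p of 12.4. The next of *Tbx5*, chr5:120029770-120030177, just beyond the 3′ end of *Tbx5*, was likewise found in limb EGFP- cells alone, with 21 reads and a −log10 p of 12.3. Upstream of *Tbx5*, regions from chr5:119941659 to 119943246 had peaks in both limb lists and in no trunk list, on a high level in both fractions. Where their summits lay 68 bp apart, limb EGFP+ cells had 553 and limb EGFP- cells 511 reads over 10 kb, 7.41 and 6.27 times the library, a ratio of 1.182 (1.05 to 1.34). This is close to the genome-wide median ratio of 1.17 for these 2 lists. At the neighbouring interval from chr5:119942883 limb EGFP+ and limb EGFP- cells had 509 and 494 reads, a ratio of 1.13 (0.993 to 1.28), within counting error of 1.

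Inside *Tbx5* each of the 4 distal regions had its highest −log10 p in limb EGFP+ cells, while downstream of the gene most regions had it in limb EGFP- cells. The region from chr5:120004246 to 120005061 in a *Tbx5* intron had 32 reads at the summit in limb EGFP+, 17 in limb EGFP- and 10 in trunk EGFP+ cells, and 354, 260 and 99 reads over 10 kb. The limb EGFP+ level was 1.49 times (1.26 to 1.75) the limb EGFP- level and 3.84 times (3.07 to 4.85) the trunk EGFP+ level. Beside it, chr5:120005195-120005993, 799 bp wide, was found in limb EGFP+ cells alone, as was chr5:120022312-120022615 in an exon of *Tbx5*, with a −log10 p of 7.1 and 7.7. The widest distal interval of *Tbx5*, 880 bp at chr5:120091521-120092400, lies 121 kb downstream, with a −log10 p of 12.3 in limb EGFP+, 10.9 in limb EGFP- and 6.0 in trunk EGFP+ cells. In the trunk lists alone the strongest region was chr5:119779667-119780088, upstream of *Tbx3*, found in trunk EGFP- cells with 14 reads and a −log10 p of 8.1. At the region 17.6 kb downstream of the start of *Tbx3*, trunk EGFP- cells were the highest, with 332 reads over 10 kb against 190 in limb EGFP- and 209 in trunk EGFP+ cells. The limb EGFP- level was 0.644 times (0.536 to 0.772) and the trunk EGFP+ level 0.720 times (0.602 to 0.858) the trunk EGFP- level.

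At *Tbx15* the strongest acetylation lay inside the gene. The region from chr3:99161202 to 99161876, where a coding exon meets the next intron beside an alternative start site, had 91 reads at the summit in limb EGFP+, 57 in limb EGFP- and 34 in trunk EGFP- cells, with a −log10 p of 21.8, 14.9 and 9.6. Over 10 kb there were 1357, 819 and 484 reads, 18.2, 10.0 and 5.28 times the library, and the limb EGFP+ interval lay at 1.2% of its list by this level, the highest of any interval near the 7 genes. The limb EGFP+ level was 1.81 times (1.66 to 1.98) the limb EGFP- level, which was 1.90 times (1.70 to 2.13) the trunk EGFP- level. Trunk EGFP+ cells had no interval there. Their 3 distal intervals near *Tbx15* had 7, 10 and 9 reads at the summit.

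The other marked regions of *Tbx15* were weaker. Upstream, chr3:99017332-99017537 was found in limb EGFP+ cells alone, with 25 reads and a −log10 p of 9.7, and the widest distal interval, 805 bp at chr3:99155120-99155924 in an intron, was also found in limb EGFP+ cells alone, with 714 reads over 10 kb. The strongest region of EGFP- lists alone, chr3:99149451-99149866, lay just inside the gene in limb EGFP- cells, with 26 reads and a −log10 p of 9.2. In the trunk lists alone the strongest was chr3:99284879-99285097 in an intron, found in trunk EGFP+ cells with 9 reads and a −log10 p of 4.9. Of the 19 distal regions, 8 lay in *Tbx15* itself and 7 in the neighbouring *Wars2*.

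*Tbx18* had the fewest distal marks, 8 regions over the 4 lists, and no other protein-coding start site lies within 200 kb of it. A region in an intron, from chr9:87611569 to 87612336 and next to the promoter, had peaks in limb EGFP+, trunk EGFP+ and trunk EGFP- cells, with 26, 14 and 17 reads at the summit and a −log10 p of 8.3, 7.7 and 7.8. The limb EGFP+ interval, 685 bp, was the widest distal interval of the gene. These peaks of similar rank sat on different levels, with 345, 114 and 166 reads over 10 kb, and limb EGFP+ cells were 3.25 times (2.62 to 4.06) as high as trunk EGFP+ cells. Another, chr9:87500377-87500635, was found in limb EGFP- cells alone with a −log10 p of 7.2. The strongest region of EGFP+ lists alone was chr9:87747022-87747221, in limb EGFP+ cells with 11 reads and a −log10 p of 6.5, and that of trunk lists alone chr9:87564387-87564856, in trunk EGFP- cells with 11 reads and a −log10 p of 4.8.

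By level over 10 kb, the distal regions with peaks in both lists of a pair, those peaks included that reach into a promoter window, were mostly higher in limb EGFP+ than in trunk EGFP+ cells. This held for 13 of 15 regions near the 7 genes, with a median ratio of 1.94, where 62.5% of 11264 regions genome-wide were higher and the median ratio was 1.09. Of the 15, 10 lie near *Tbx2* and *Tbx4*, and neighbouring regions share part of their 10 kb. In EGFP- cells limb was higher than trunk in 8 of 13 regions, against 59.3%, with a median ratio of 1.20 against 1.04. Limb EGFP+ was higher than limb EGFP- in 13 of 18, against 65.8%, with a median ratio of 1.26 against 1.17. Trunk EGFP+ was higher than trunk EGFP- in 2 of 8, against 65.8%, with a median ratio of 0.752 against 1.12. With peaks outside promoter windows alone, the counts were 12 of 14, 8 of 12, 11 of 16 and 1 of 7 in the same order, against 60.7%, 59.5%, 63.4% and 64.7%, and the median ratios 1.98, 1.25, 1.26 and 0.720.

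The distal intervals near the 7 genes were also placed by rank and width within their lists. Ordered by −log10 p, their median place was 69.6% in limb EGFP+, 66.7% in limb EGFP-, 78.1% in trunk EGFP+ and 69.9% in trunk EGFP- cells, where the medians of all distal intervals were 67.2%, 68.8%, 68.3% and 71.2%. In the upper 50% of the list there were 25.9%, 12.5%, 13.6% and 12% of them, against 27.3%, 24.5%, 25.3% and 21.5% of all distal intervals. The median width was 310.5, 334, 280.5 and 371 bp, against 331, 294, 324 and 303 bp. Limb EGFP+ cells held the interval of most reads at its summit, with 91, while in the trunk lists no distal summit near these genes had more than 31 reads in EGFP+ and 36 in EGFP- cells.

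**Figure D4:**
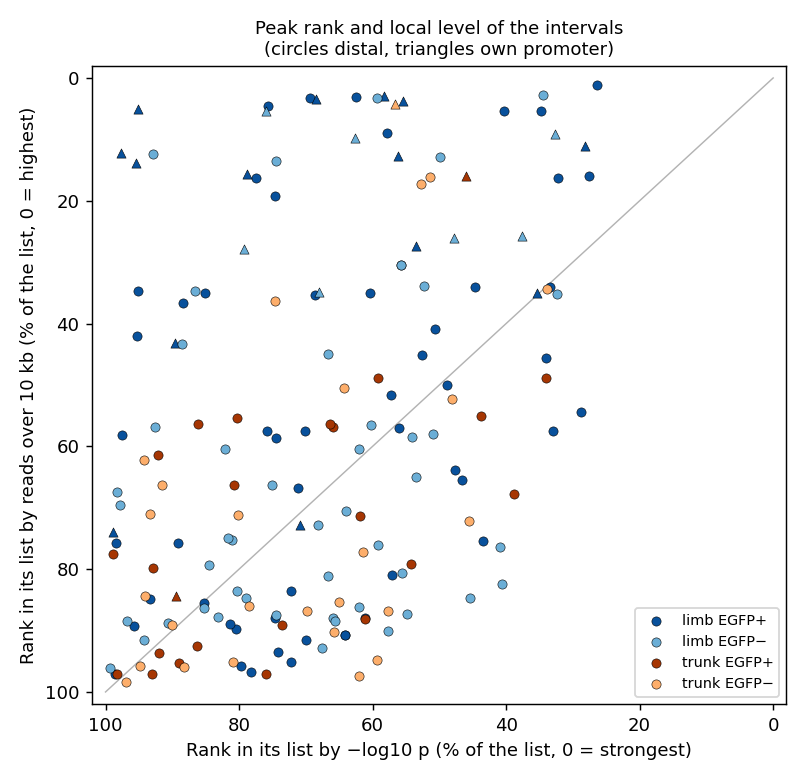
Place of each interval near the 7 genes in its own list by −log10 p (x axis, 0% is the strongest) and by reads over 10 kb (y axis, 0% is the highest), with circles for distal intervals and triangles for the gene's own promoter, coloured by list. The triangles of limb EGFP+ cells lie mostly in the upper left, as at *Tbx5* (95.1% by −log10 p and 5.00% by reads over 10 kb). The −log10 p is itself scored against the local level, and the grey line marks equal rank by both measures.

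Motifs were searched in the DNA under the distal regions, and their shares are given beside those over all distal intervals. Within 200 bp around the strongest summit and on both strands, the T-box half-site GGTGTG occurred in 12 of the 98 regions (12.2%), against 13.7% of all 74127 distal intervals of the 4 lists. The SOX-type ACAAAG occurred in 14 (14.3%, against 17.6%) and ACAAT in 20 (20.4%, against 22.4%). The PITX-type TAATCC occurred in 5 (5.1%, against 5.38%) and the homeobox core TAATTA in 5 (5.1%, against 3.17%). ACAAAG and ACAAT begin with the same 4 letters, as do TAATCC and TAATTA, but no match to 1 is a match to the other. The median GC content was 51.5%, against 50.5%.

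Among 12 other T-box and *Pitx* genes promoter marks were few in every list. In each limb list 2 had a promoter interval and in each trunk list 1. *Mga*, a T-box protein that also pairs with MAX, had one in all 4 lists, and *Tbx6*, a gene of the presomitic mesoderm, in both limb lists. By −log10 p the *Tbx6* intervals were among the weakest, at 96.2% of the limb EGFP+ and 99.7% of the limb EGFP- list. The best of *Mga* lay at 13.6% and 16.7% of these lists. The median number of distal intervals of the 12 genes was 3 in both limb lists, 4.5 in trunk EGFP+ and 1.5 in trunk EGFP- cells, against 10, 10, 3 and 4 for the 7 genes in the order of the plots. *Tbx1*, a gene of the pharyngeal arches, had 12 in limb EGFP+, 5 in limb EGFP-, 13 in trunk EGFP+ and 7 in trunk EGFP- cells, the most of the 12 in every list but limb EGFP-, where *Tbx21* had 7. *Tbx20* and *Tbx22* had 0 in all 4 lists.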

How the data were processed

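Per the paper's methods, the authors sampled equal numbers of reads per H3K27ac library, trimmed them with CutAdapt, mapped them with Bowtie2 to GRCm39, filtered on mapping quality and ran MACS2 peak calling library by library after extending reads to 200 bp. The submitters' processing notes name CutAdapt 1.18, Bowtie2 2.3.5.1 and MACS2 2.2.7.1. No control library and no q threshold is named. Each deposited row is a summit with a score, which in the authors' MACS2 output is the −log10 q multiplied by 10 and cut to a whole number. The deposited fold is the authors' ratio of summit pileup to local background, with 1 added to both. The −log10 p and −log10 q values are the authors' own, the latter corrected within each library. Read lengths of more than 1 kind and 2 sonicators are named for the libraries without an assignment.

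Rows that shared their start and end were joined to give intervals, and intervals on the numbered chromosomes, X and Y were kept. Start sites came from the GENCODE annotation of GRCm39. Reads at summits and over 10 kb were recovered from fold and −log10 p, for 100% of intervals, with 7 reads at the weakest limb summit. Exact Poisson intervals are at the 95% level. Motifs were looked for in the 100 bp to either side of a summit. The recovery and the counting were tested on simulated data. No test was made between populations. The 7 genes, the gene lists and the motifs were chosen with earlier results of these data known. Regions were named by rule: per gene, the 3 distal regions of highest −log10 p, the strongest in limb, trunk, EGFP+ and EGFP- lists alone, and the widest interval, and other T-box or *Pitx* genes with a promoter interval. *Tbx1*, *Tbx20* and *Tbx22*, the regions inside *Pitx1*, the regions compared by level and the level over 10 kb itself were added after values were seen. Alternatives were a −log10 q of at least 5, the 20000 strongest intervals per list, a fold of at least 4, windows of 100 and 500 kb, summits for intervals, the nearest start site, and other start sites or promoter windows. Of the listed genes and the regions named by rule, 1 gene and 1 region of *Tbx18* are not reported here. The work used samtools 1.23.1 and Python 3.11.15 with pysam 0.24.0, scipy 1.17.1, matplotlib 3.10.9, pandas 2.3.3 and numpy 2.4.6.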

Additional observations from a re-analysis of the deposited data

Results flagged for a closer look

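*Pitx1* differed between the tissues in how its distal intervals split between the fractions. Limb EGFP+ cells had 6 more than limb EGFP- cells, with 11 and 5, while the difference of trunk EGFP+ minus trunk EGFP- cells was -4, with 0 and 4. The limb difference was 2 and the trunk difference -1 when a −log10 q of 5 or more was asked, 1 and -2 in the 20000 strongest intervals, and 1 and -1 when the fold had to reach 4. The 2 differences were 3 and -2 within 100 kb and 12 and -7 within 500 kb. With each interval given to the nearest start site they were 3 and -1. The start sites of 4 other protein-coding genes lie within 200 kb of that of *Pitx1*. Of the 4 trunk EGFP- intervals, 1 is overlapped by a trunk EGFP+ interval that was not counted because it reaches into a promoter window. There was 1 library per population, and the difference between the tissues was not tested.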

How the results depend on the processing

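No paired analysis was possible because each of the 4 populations has 1 library, and all carry the number 1. For the same reason no library could be left out of a population, and with 1 of the 4 lists left out at a time the 5 genes marked in limb alone ranged from 3 to 6. In the order limb EGFP+, limb EGFP-, trunk EGFP+ and trunk EGFP-, the distal intervals of the 7 genes numbered 54, 48, 22 and 25. They came to 25, 20, 7 and 9 with a −log10 q of 5 or more, to 13, 15, 4 and 11 in the 20000 strongest intervals per list, to 25, 18, 8 and 10 with a fold of at least 4, and to 105, 86, 50 and 62 within 500 kb. Within 100 kb, and with each interval given to the nearest start site, trunk EGFP- cells had 15. Genes with a promoter interval came to 3, 3 and 1 in the first 3 lists when a −log10 q of 5 or more was asked, to 2, 3 and 1 in the 20000 strongest, to 2, 1, 0 and 0 with a fold of at least 4, and to 3, 0 and 0 in the last 3 lists with the start of the gene record alone. The 5 genes marked in limb alone became 3 by that −log10 q, 2 in the 20000 strongest, 2 with a fold of at least 4 and 3 with windows of 2 kb on both sides. Over all genes the share marked in limb alone was 2.74% by that −log10 q and 2.73% with the 2 kb windows. For the other settings of the promoter counts no share over all genes was computed, so whether these counts stay above it is not known. Among differences per gene, limb EGFP- minus trunk EGFP- reversed for *Tbx2* to -1 in the 20000 strongest and -2 with a fold of at least 4, for *Tbx15* to -1 with a fold of at least 4 and for *Pitx1* to -1 in the 20000 strongest, and trunk EGFP+ minus trunk EGFP- reversed for *Tbx2* and *Tbx4* to -1 in the 20000 strongest. Of 224 such values, 99 stayed within 1.5 times the reported difference, 119 moved by more and 6 reversed. The cause was not tested. Summits of 7 or 8 reads were the weakest called, so that a peak missing from a list may lie just under this depth. A call is scored against the local level, so that where this level is high a missing peak may hold more reads than that.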
